A study of Bos taurus with 4 samples.

Results

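DSG1, MPZL2 and F2RL1 are 3 genes grouped here as epithelial barrier genes. Their reads were followed through every library of a study of the ruminal wall of Angus steers, and the cells that gave the reads were not identified. These genes are 3 of the 24616 genes of the deposited table and were found by their Ensembl identifiers, ENSBTAG00000013831 for DSG1, ENSBTAG00000033510 for MPZL2 and ENSBTAG00000034848 for F2RL1. The genes were selected on the authors' false discovery rate for the difference between the diets in these same libraries, so that the difference between the diets is given below as a description, with no test. The study compared 2 grass-fed steers (Grass_104 and Grass_222), which grazed alfalfa, with bailage in winter, and were never given grain, and 2 grain-fed steers (Grain_184 and Grain_224), which ate a conventional ration of soy bean, corn silage and shelled corn with trace minerals. All 4 were Aberdeen Angus steers of 1 closed herd, shared 1 diet until weaning and gave 1 RNA library each from a small piece of ruminal wall taken after termination. Grain-fed steers came to market weight at about 14 months and grass-fed steers about 200 days later, so that diet and age cannot be told apart.

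The ruminal wall is lined by a stratified squamous epithelium that keeps the microbes and acids of the rumen away from the blood and takes up fermentation products, and beneath it lie connective tissue and smooth muscle. Cells of such an epithelium are held together by desmosomes, in which cadherins of neighbouring cells bind each other in the presence of calcium and are anchored to keratin filaments inside. DSG1, desmoglein 1, is one of these cadherins and in skin belongs to the upper, differentiating layers. MPZL2, myelin protein zero like 2, is a homophilic adhesion protein of the immunoglobulin superfamily found on epithelial cells. F2RL1 encodes protease-activated receptor 2, a G protein-coupled receptor that is switched on when a serine protease cuts its outer end and uncovers a tethered ligand.

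In the RefSeq gene list of the ARS-UCD2.0 assembly, DSG1 stands between DSG4 and DSC1 in a run of desmosomal cadherin genes that goes on with DSG3 and DSG2 on one side and DSC2 and DSC3 on the other. MPZL2 stands between its relative MPZL3 and CD3E, and F2RL1 stands between F2R, which encodes another protease-activated receptor, and S100Z. These neighbours are named for orientation, and their expression was not analysed here, because the table names genes by identifier and the list carries none of these identifiers. For the same reason the label of ruminal wall could not be checked against marker genes, and of 75 genes in lists of junction, keratin, protease and cell type markers the 3 members were the genes with a known identifier. DSG1 was thus 1 of 13 desmosome genes, MPZL2 was 1 of 4 genes of the myelin protein zero family, and F2RL1 was 1 of 4 protease-activated receptors.

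MPZL2 was also measured in the study by quantitative PCR in the same steers, and the primer pair of that assay is shown. The primers were not placed on the transcript here. The primers, written in lower case from 5′ to 3′ as the study lists them, have 20 bases each and a GC content of 55%.
MPZL2 forward: agccccacctttcattccag
MPZL2 reverse: gcctgtgagtcattcctgct
The PCR results themselves were not used here.

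The deposited values are the authors' counts of reads per gene, aligned to UMD3.1 and then adjusted in edgeR to 1 common library size. The whole reads behind these values were recovered by inverting the adjustment, and are given below as reads and as CPM, the reads of a gene per 1000000 reads on genes. The libraries held 5242466 and 6216014 reads on genes in Grass_104 and Grass_222, and 8885034 and 9030027 in Grain_184 and Grain_224, so the grain-fed libraries could show lower levels. CPM divides by these totals. The deposited values rest instead on estimated sizes relative to the common library size. These were 0.694 and 0.937 in the grass-fed libraries and 1.23 and 1.25 in the grain-fed ones. A floor of 3 reads corresponds to 0.572 and 0.483 CPM in the grass-fed libraries and to 0.338 and 0.332 CPM in the grain-fed ones. Intervals and floors cover counting error only, since each steer gave 1 library. Grass_222 stood apart from the rest. Of 13461 genes that averaged 1 CPM or more, 727 were 8-fold or more away in Grass_222 from libraries that were themselves within 2-fold of one another, and the same count for each of the other libraries was 26 to 93. Of the 727 genes, 634 were lower in Grass_222 and 93 were higher. Values are therefore given for each grass-fed steer separately.

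DSG1 was read in both grass-fed steers and in neither grain-fed steer. It had 15 reads in Grass_104 (95% Poisson interval 8.4 to 24.7) and 238 reads in Grass_222 (209 to 270), which are 2.86 and 38.3 CPM. It had 0 reads in Grain_184 and 0 in Grain_224, where the floors of 3 reads are 0.338 and 0.332 CPM. The 95% Poisson intervals of 0 reads reach 0.415 and 0.409 CPM there. With 3 reads over both grain-fed libraries as the floor, DSG1 was at least 17.1-fold higher in Grass_104 and at least 229-fold higher in Grass_222 than in the grain-fed group, with the grass-fed reads entered as counted and their own counting error left out of the bound. The size of the bound thus differed widely with the steer used, and the share of the grass-fed reads of DSG1 that came from Grass_222 was 94.1%.

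For F2RL1, the receptor of the set, the reads were again confined to the grass-fed libraries among the 4 sequenced. They numbered 41 in Grass_104 (29.4 to 55.6) and 144 in Grass_222 (121 to 170), or 7.82 and 23.2 CPM. Grain_184 and Grain_224 had 0 reads each. F2RL1 was at least 46.7-fold higher in Grass_104 and at least 138-fold higher in Grass_222 than in the grain-fed group, by the same floor.

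MPZL2, the most abundant of the 3 genes in both grass-fed libraries, differed from the other 2 in that it was read in all 4 libraries. Its reads numbered 159 in Grass_104 (135 to 186) and 1474 in Grass_222, or 30.3 CPM (25.8 to 35.4) and 237 CPM (225 to 250). In the grain-fed steers it had 25 reads in Grain_184 (16.2 to 36.9) and 27 in Grain_224 (17.8 to 39.3), or 2.81 and 2.99 CPM. Both grain-fed values lay below both grass-fed values, and the grain-fed steers lay close together, with a ratio of 1.06 between Grain_224 and Grain_184 (95% interval 0.594 to 1.91). Against the pooled grain-fed reads, MPZL2 was 10.4-fold higher in Grass_104 (7.6 to 14.6) and 81.7-fold higher in Grass_222 (62 to 110). These intervals do not overlap, so the fold depended on the steer by more than counting error.

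**Figure D1:**
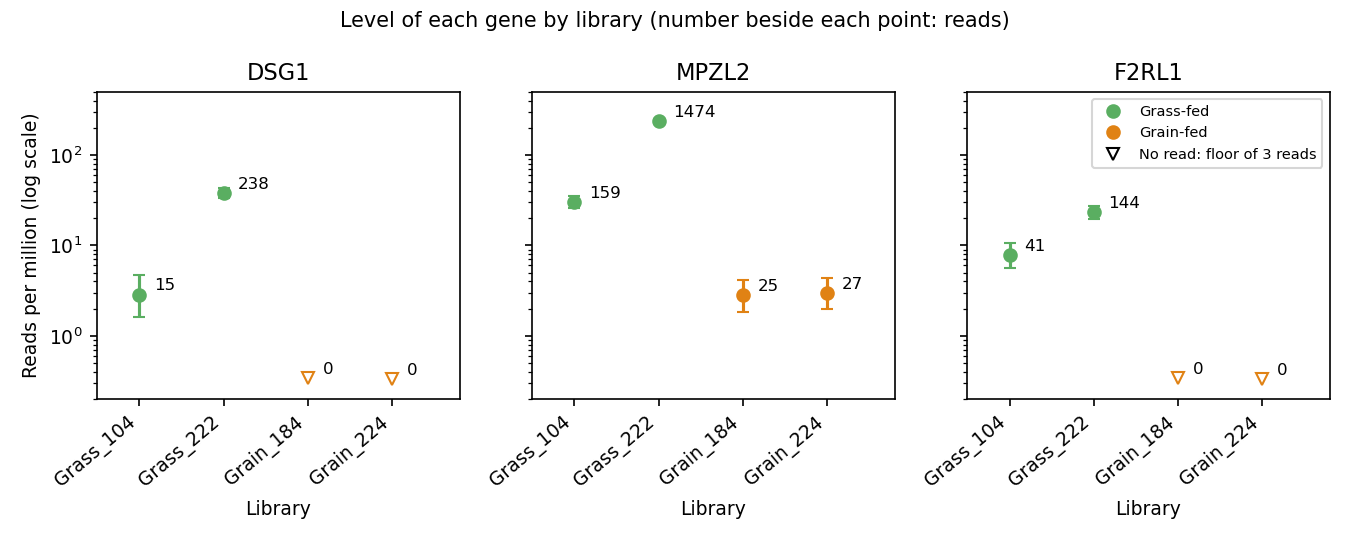
CPM (log scale) of DSG1, MPZL2 and F2RL1 in the 2 grass-fed and 2 grain-fed libraries, with 95% Poisson intervals and the number of reads beside each point, and open triangles at the floor of 3 reads where a library had 0 reads. Grass_222 is the highest library for each gene, and MPZL2 alone has reads in the grain-fed libraries, at 2.81 and 2.99 CPM.

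On the scale of log2(deposited value + 1), which understates changes of low genes, the mean of the grass-fed group was 6.26 ± 2.46 for DSG1 (SD, n = 2), 6.59 ± 0.96 for F2RL1 and 9.23 ± 1.96 for MPZL2. In the grain-fed group it was 4.46 ± 0.064 for MPZL2 and 0 for the other 2 genes. The spread between the grass-fed steers was thus wide for DSG1 and MPZL2 and narrower for F2RL1. The differences between the group means were 6.26 for DSG1, 6.59 for F2RL1 and 4.78 for MPZL2. For DSG1 and F2RL1 the difference depends on the added 1, because the grain-fed values are 0. No test was run on these values, since they chose the genes. In bulk tissue, fewer cells with these transcripts in the excised piece and less RNA per cell cannot be told apart.

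Of all 17307 genes with a read in at least 1 library, 18.6% had both grass-fed values above both grain-fed values in CPM, and the 3 members were among them. That count fixes nothing about the members, which were chosen for this contrast. It was 3223 genes with all 4 libraries, 7676 without Grass_104 and 5231 without Grass_222, where fewer values have to be in order. On the deposited values in place of CPM, the count with all 4 libraries was larger, at 4207 genes. The more particular form seen in DSG1 and F2RL1, reads in both grass-fed libraries and none in either grain-fed library, was found in 162 genes or 0.936%. Most of those genes were low: their medians were 5 reads in Grass_104 and 4 in Grass_222, and 36 of the 162 had at least 1 CPM in both grass-fed libraries. Ordered by the mean CPM of the grass-fed libraries, DSG1 was 2nd and F2RL1 5th among the 162. Ordered by the lower of the 2 grass-fed values, F2RL1 was 2nd and DSG1 6th. High places in either order were favoured by the choice of the genes on this contrast, and they are no separate result. The number of such genes was 949 without Grass_104, 331 without Grass_222, 276 without Grain_184 and 431 without Grain_224.

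The members were set against genes that reached the same level in both grass-fed steers. Of 9705 genes with at least the 2.86 CPM of DSG1 in both grass-fed libraries, 6 had no read in either grain-fed library, DSG1 included. Of 7501 genes with at least the 7.82 CPM of F2RL1 in both, 2 had none, F2RL1 included. For MPZL2, 3401 genes had at least 30.3 CPM in both grass-fed libraries, and MPZL2 was the 1 gene among them with no more than 2.99 CPM in both grain-fed libraries. The limits were each member's own lowest grass-fed and highest grain-fed CPM, so that the member itself passes by construction. The members were also chosen on this contrast. The small counts were thus favoured in advance and are no separate support for the difference between the diets.

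The place of each gene among the genes with a read was taken from the order of reads within a library, which needs no scaling between libraries. Reads are not divided by transcript length here, so a long transcript stands higher in this order than a short one at the same number of molecules. MPZL2 ranked 587th of 15244 genes in Grass_222 and 4578th of 13706 in Grass_104, above 96.1% and 66.5% of the genes with a read. In the grain-fed libraries it ranked 11175th of 14842 and 11203rd of 15371, above 24.4% and 26.9%. MPZL2 thus moved from the upper part of the order in both grass-fed steers to the lower part in both grain-fed steers.

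DSG1 changed its place within the grass-fed group as well. It ranked 3947th of 15244 genes in Grass_222, above 74.1% of them (71.4 to 76.6 over its Poisson interval). In Grass_104 it ranked 10997th of 13706, above 19.3% (13.8 to 25.8). F2RL1 ranked 5543rd in Grass_222 and 8926th in Grass_104, above 63.6% (59.9 to 67.3) and 34.6% (28.4 to 40.4) of the genes with a read. DSG1 therefore stood below F2RL1 in Grass_104 and above it in Grass_222. Neither had a rank in a grain-fed library, where the median gene with a read had 119 reads in Grain_184 and 110 in Grain_224.

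**Figure D2:**
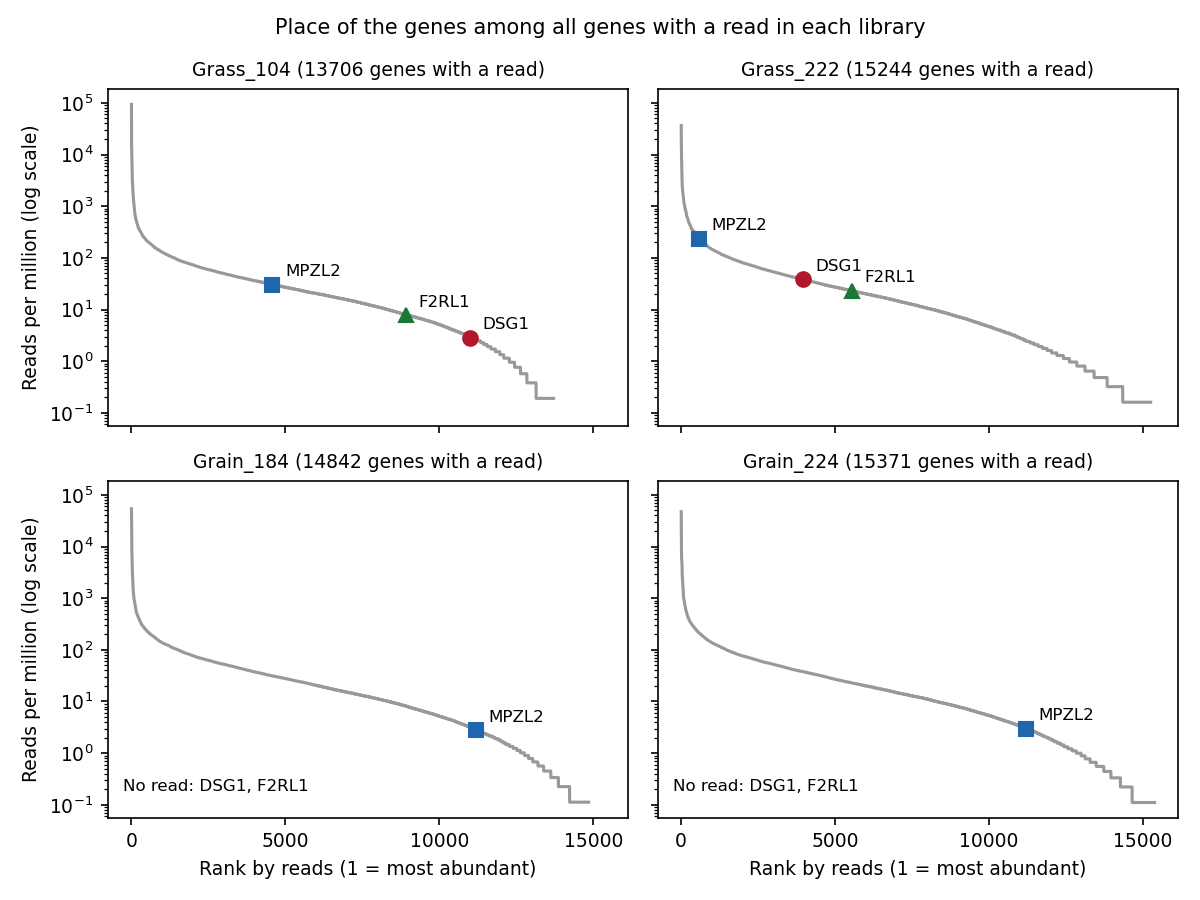
CPM (log scale) against rank for all genes with a read, 1 panel per library, with DSG1, MPZL2 and F2RL1 marked. DSG1 and F2RL1 exchange places between Grass_104 and Grass_222, and MPZL2 falls from rank 4578 and 587 in the grass-fed libraries to 11175 and 11203 in the grain-fed libraries.

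The difference between the 2 grass-fed steers was not the contrast on which the genes were chosen. It still entered the choice, since the authors' false discovery rate rests in part on the variation of each gene within these same libraries. The places among other genes given below are therefore not free of the choice. All 3 members were higher in Grass_222. The ratio of Grass_222 to Grass_104 in CPM was 13.4 for DSG1 (95% interval of counting error 7.95 to 24.3), 7.82 for MPZL2 (6.63 to 9.27) and 2.96 for F2RL1 (2.08 to 4.3). Each interval lies above 1, and that of F2RL1 lies below the other 2. With 1 library per steer, these intervals compare the libraries, and the difference between animals has no replicate. The deposited values, which use other library sizes, give smaller ratios. They were 21.89 in Grass_104 and 253.9 in Grass_222 for DSG1. In the same order they were 229.4 and 1573 for MPZL2, and 59.29 and 153.6 for F2RL1.

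The difference between the grass-fed steers was then read against that of other genes, among which DSG1 and MPZL2 lay high. Of the 13461 genes that averaged 1 CPM or more, 54.2% were higher in Grass_222 in CPM and 48.9% in the deposited values, so that the side holding most genes depended on the scale. On the log2(deposited value + 1) scale, the median difference was -0.0044 (quartiles -0.997 and 0.885). At least 4-fold higher on this scale were 11.8% of these genes, with DSG1 (log2 difference 3.48) and MPZL2 (2.77) among them and F2RL1 (1.36) not. DSG1 lay above 94.8% of the genes, MPZL2 above 92.5% and F2RL1 above 82%. Of the 2969 such genes whose grass-fed values both exceeded the grain-fed ones, 73.8% were higher in Grass_222 in CPM and 64.5% in the deposited values, and 10.2% were at least 4-fold higher on the log2(deposited value + 1) scale. Within this narrower group DSG1 lay above 98.2% of the genes, MPZL2 above 95.8% and F2RL1 above 81.6%. Against genes within 2-fold of its own mean grass-fed CPM, DSG1 lay above 97.3% of 4799 genes, MPZL2 above 96.2% of 1960 and F2RL1 above 86.4% of 4669.

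**Figure D3:**
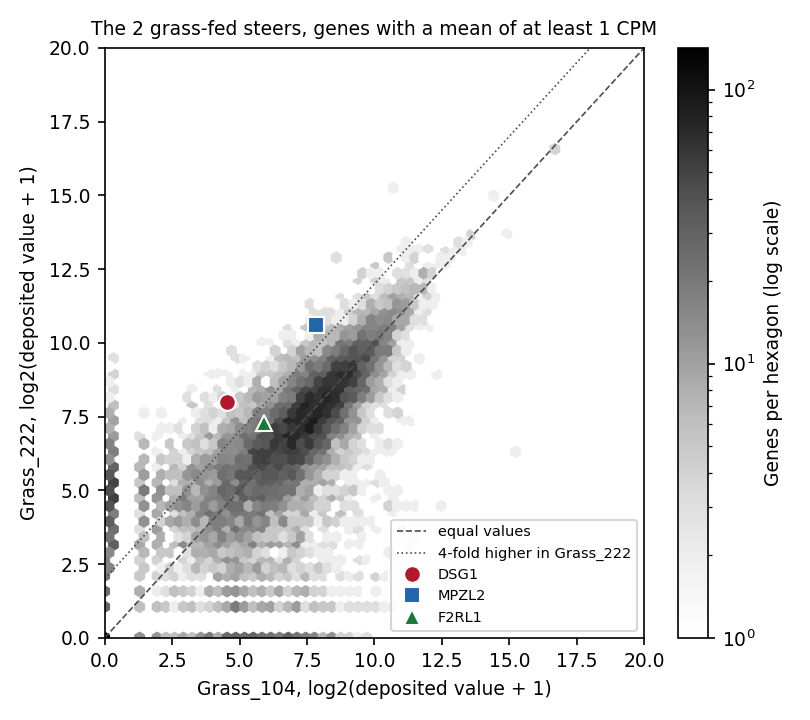
Each gene that averaged 1 CPM or more by its log2(deposited value + 1) in Grass_104 (horizontal) and Grass_222 (vertical), with darker hexagons holding more genes, a dashed line of equal values and a dotted line of a 4-fold higher value in Grass_222. DSG1 and MPZL2 lie above the dotted line, and F2RL1 lies between the lines.

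Within a library, the reads of the members were also set against each other, a comparison that no scaling between libraries can move. For each F2RL1 read there were 0.366 DSG1 reads in Grass_104 and 1.65 in Grass_222, so the proportion was 4.52 times higher in Grass_222 (exact conditional interval 2.34 to 9.08). For each F2RL1 read there were 3.88 MPZL2 reads in Grass_104 and 10.2 in Grass_222, 2.64 times higher (1.75 to 3.92). For each MPZL2 read there were 0.0943 DSG1 reads in Grass_104 and 0.161 in Grass_222, 1.71 times higher, with an interval that includes 1 (0.985 to 3.19) and overlaps both others. F2RL1 thus differed less between the grass-fed steers than either of the adhesion genes, and between DSG1 and MPZL2 no difference was detectable at this depth. At the Grass_104 proportions, the 52 grain-fed reads of MPZL2 would go with 4.9 DSG1 reads and 13 F2RL1 reads over both grain-fed libraries. At the Grass_222 proportions, they would go with 8.4 and 5.1. Neither gene had a read there, so their absence beside MPZL2 is a matter of few reads.

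Genes with a like profile were sought by the root mean square distance between centred log2(deposited value + 1) values over the 4 libraries, a distance of 0 meaning the same shape. Within a distance of 0.5 lay 2 of 17306 other genes for DSG1, 20 for MPZL2 and 1 for F2RL1. The gene nearest to DSG1 was LOC512548 (ENSBTAG00000014329), at 0.40, with 8 reads in Grass_104, 273 in Grass_222 and none in the grain-fed steers. It shared with DSG1 the concentration of reads in Grass_222. The gene nearest to MPZL2 was ENSBTAG00000021601, for which the sources give no symbol, at 0.113, with 6 and 55 reads in Grass_104 and Grass_222 and none in the grain-fed steers. The likeness is one of shape on the log2 scale with 1 added, since MPZL2 had 52 reads in the grain-fed steers.

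The members were not each other's nearest genes. Among the 13460 other genes averaging 1 CPM or more, F2RL1 was 5th and MPZL2 6th in order of nearness to DSG1, at distances of 0.768 and 0.78. Seen from F2RL1, DSG1 was 6th and MPZL2 25th, and seen from MPZL2, DSG1 was 76th and F2RL1 201st. The distance between MPZL2 and F2RL1 was 1.04. The centred values show where the shapes part: Grass_104 stood 2.62 above the gene's own mean for F2RL1 but 1.39 for DSG1 and 1 for MPZL2, while Grass_222 stood 3.98, 4.87 and 3.78 above it. All 3 genes were chosen on the same contrast, which brings their profiles together by itself.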

How the data were processed

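Total RNA of the ruminal wall of 4 steers was sequenced, 1 library per animal. Per the paper's methods and the submitters' processing notes, reads were trimmed at the start, aligned with Bowtie to UMD3.1, counted per Ensembl gene with summarizeOverlaps and adjusted in edgeR. Tool versions, the use of strand and the release of the annotation were not given in the sources used here. What the authors deposited as signal is this adjusted count (pseudo-count). A further deposited table holds the authors' own log2 fold changes, p-values and FDR, and was not used.

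Whole reads were recovered by reversing the adjustment (Python 3.11.15, scipy 1.17.1). Relative library sizes and 1 dispersion (0.512) were estimated from the most frequent low values, and reads were then sought that return every value. They returned 24615 of 24616 genes within 0.01 (largest difference 0.011), and 100% of simulated counts in 6000 genes. The simulated counts were adjusted by the same model that was then reversed. Their recovery therefore tests the inversion and not whether the model is the one the authors used. The recovered reads number 5242466 to 9030027 per library.

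Members were compared as reads, CPM and log2(pseudo-count + 1), with exact Poisson and conditional binomial intervals at 95%. No test was run, since the members, and the gene lists, were chosen with earlier results of these data known. Named genes were the members and the nearest profile of each, with at most 2 shown by identifier. The gene nearest to F2RL1 is not reported here. The RefSeq list (ARS-UCD2.0) has 37063 genes, 0 with an identifier of the table, so the 11 gene lists were not analysed beyond the members, and no protein or promoter sequence was used. Alternatives were other pseudocounts, scalings, filters and leaving out single libraries.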

Additional observations from a re-analysis of the deposited data

How the results depend on the processing

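Across 83 alternative values, 51 stayed within the spread or counting error of the reported value (for counts, within 1.5 times), 32 moved and 0 were counted as reversed. Among those counted as unmoved was the share of genes higher in Grass_222. It went from 54.2% in CPM to 48.9% in the deposited values, so the side holding most genes changed. The counts without single libraries for genes with no grain-fed read, the order of the diets on deposited values, and the shares of genes higher in Grass_222 on deposited values, were chosen once the data had been seen.

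The log2 difference between the diets ranged from 4.52 to 7.99 for DSG1, from 3.39 to 6.16 for MPZL2 and from 5.91 to 7.27 for F2RL1 when single libraries were left out, with the low end without Grass_222 and the high end without Grass_104. In a group of 2, leaving out 1 grass-fed steer shifts the difference by about the spread itself. Whether such a value counted as moved was therefore near a tie and says little about robustness. For F2RL1 it was 7.58 with a pseudocount of 0.5 and 5.61 with one of 2. On CPM of recovered reads, where 1 CPM is worth 7.15 deposited units and the added 1 weighs more, it was 3.62 for DSG1 and 3.87 for F2RL1. The count of genes with both grass-fed values above both grain-fed values ranged from 4392 to 7676 without single libraries, and the count with reads in both grass-fed and in neither grain-fed library from 276 to 949. With all 4 libraries the latter count was 162, of which 36 had at least 1 CPM in both grass-fed libraries.

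Ranked among all genes listed, unread genes included, DSG1 stood above 55.1% of genes in Grass_104 and 83.9% in Grass_222, F2RL1 above 63.6% and 77.5%, and MPZL2 above 81.3%, 97.6%, 54.4% and 54.3% in Grass_104, Grass_222, Grain_184 and Grain_224. Among genes of at least 1 CPM in 2 libraries, DSG1 stood above 70.0% and F2RL1 above 57.9% in Grass_222, and MPZL2 above 95.5% in Grass_222, 15.4% in Grain_184 and 15.5% in Grain_224. These changes follow from the genes ranked. With a pseudocount of 2 the genes near a member numbered 4 for DSG1, 13 for MPZL2 and 2 for F2RL1, and with quantile normalization 2 for F2RL1. Depth limits DSG1 most, at 15 reads in Grass_104.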
